A study of Mus musculus with 12 samples.

Results

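Wild type (WT) BV2 cells kept in medium were compared with WT BV2 cells given interferon gamma (IFNγ) at 1 U/mL for 24 h. BV2 is an immortalised line of mouse microglia, the resident macrophages of the brain, so the cells come from a culture dish and not from tissue. Each condition had 3 libraries, lettered A, B and C, and per the labels' protocols each replicate was prepared independently. The series' design text instead speaks of pooling the replicates of a condition, so if the 3 libraries share a pool the p-values measure technical spread only. The remaining 6 of the 12 libraries, Atg5 knockout (KO) BV2 cells in medium or with the same IFNγ dose, entered the fit and are used only where the KO is named. The libraries hold the 3' ends of poly-A RNA from the cytosol, pooled by their Actb level. Of 46078 listed genes, those that reached a log2 value of 3 in 3 or more libraries, 10981 in all, were compared. Every value is log2 of a size-factor normalised read count plus 1, and values are listed in the order A, B, C. A gene is said to rise or fall when limma's adjusted p, corrected over all 10981 genes, was under 0.05. In bulk RNA, fewer cells of a type and less RNA per cell cannot be told apart.

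IFNγ is the macrophage-activating cytokine of T cells and natural killer cells. Its receptor, built of IFNGR1 and IFNGR2, holds the kinases JAK1 and JAK2, and signalling from it reaches GAS elements in the promoters of target genes. An early target is the transcription factor IRF1, which acts on ISRE elements of later targets, and SOCS1 is the main inhibitor of the pathway. In microglia and macrophages the known output covers antigen presentation, GTPases that attack intracellular microbes, chemokines for T cells, and nitric oxide and itaconate production.

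Promoters of genes that the results turn on are shown first, with short letter strings, known as binding motifs, searched in each. RefSeq start sites on GRCm38.p6 gave windows from 250 bases before to 50 after each start, and 6702 compared genes had exactly 1 window, 305 of them higher and 138 lower with IFNγ. The stretches below stop 30 bases past the start and read 5' to 3' on the strand of the gene. Distances count bases before the start unless said otherwise. The letters searched were GAS as TTCNNNGAA, ISRE as GAAANNGAAA, an NF-kB letter string as GGGANNNNCC, a sterol element (SRE) as TCACNCCAC and a C/EBP-ATF element as TGATGNAA, on either strand. Capitals mark the matches named with each gene, and further NF-kB matches, 13 bases before the start of Irf1, 7 past that of Gbp2 and 74 and 20 before that of Hmgcs1, are in lower case. Irf1 (chr11:53769764-53770043, plus strand) has a GAS match that starts 90 bases before its start. Irf1 has a second RefSeq window, without a match, and stands outside the shares below.
Irf1: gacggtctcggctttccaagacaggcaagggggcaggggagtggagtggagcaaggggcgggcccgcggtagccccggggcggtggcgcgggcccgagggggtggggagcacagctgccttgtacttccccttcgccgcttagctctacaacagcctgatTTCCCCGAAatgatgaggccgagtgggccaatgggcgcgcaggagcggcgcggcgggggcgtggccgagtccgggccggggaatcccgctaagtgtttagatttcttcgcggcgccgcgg
Gbp2 (chr3:142620413-142620692, plus strand) encodes a guanylate-binding protein and has an ISRE match in reverse, 59 bases before the start, and Rsad2 (chr12:26456423-26456702, minus strand), an antiviral enzyme chosen after its values were seen, holds an ISRE match at 120 and an NF-kB match at 75.
Gbp2: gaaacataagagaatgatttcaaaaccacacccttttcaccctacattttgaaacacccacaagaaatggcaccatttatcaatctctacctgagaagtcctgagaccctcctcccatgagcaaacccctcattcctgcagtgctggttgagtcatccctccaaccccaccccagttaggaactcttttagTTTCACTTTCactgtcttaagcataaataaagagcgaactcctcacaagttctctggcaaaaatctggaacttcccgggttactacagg
Rsad2: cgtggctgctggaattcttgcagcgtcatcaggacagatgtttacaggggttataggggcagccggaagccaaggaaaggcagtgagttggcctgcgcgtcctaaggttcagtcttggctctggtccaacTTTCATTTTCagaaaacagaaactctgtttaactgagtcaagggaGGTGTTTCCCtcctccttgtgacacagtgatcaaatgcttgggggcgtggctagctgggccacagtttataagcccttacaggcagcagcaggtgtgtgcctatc
Cxcl10 (chr5:92348860-92349139, minus strand) holds an ISRE match at 213 and NF-kB matches at 159 and 103, while its neighbour Cxcl9 (chr5:92328050-92328329, minus strand) holds an NF-kB match at 130.
Cxcl10: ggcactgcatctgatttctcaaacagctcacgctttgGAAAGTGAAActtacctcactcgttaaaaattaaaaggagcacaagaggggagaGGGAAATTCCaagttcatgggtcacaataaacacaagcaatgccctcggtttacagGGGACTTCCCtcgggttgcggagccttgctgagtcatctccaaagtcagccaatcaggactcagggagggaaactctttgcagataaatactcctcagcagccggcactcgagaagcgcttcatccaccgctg
Cxcl9: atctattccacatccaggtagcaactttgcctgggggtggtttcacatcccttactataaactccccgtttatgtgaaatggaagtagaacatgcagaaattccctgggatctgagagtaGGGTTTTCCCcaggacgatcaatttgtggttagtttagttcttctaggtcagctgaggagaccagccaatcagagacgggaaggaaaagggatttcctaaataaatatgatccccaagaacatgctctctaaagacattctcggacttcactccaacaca
Acod1 (chr14:103046762-103047041, plus strand), the itaconate enzyme, holds an NF-kB match at 55, and Tap1 (chr17:34187306-34187585, plus strand), a peptide transporter chain, holds none of the 5 letter strings in a window that shares 275 bases with that of Psmb9.
Acod1: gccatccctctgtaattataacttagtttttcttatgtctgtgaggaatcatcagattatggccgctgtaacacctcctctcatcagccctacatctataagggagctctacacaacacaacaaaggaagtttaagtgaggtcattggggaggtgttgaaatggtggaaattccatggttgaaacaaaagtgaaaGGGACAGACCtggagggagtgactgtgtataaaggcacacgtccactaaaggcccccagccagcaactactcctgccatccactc
Tap1: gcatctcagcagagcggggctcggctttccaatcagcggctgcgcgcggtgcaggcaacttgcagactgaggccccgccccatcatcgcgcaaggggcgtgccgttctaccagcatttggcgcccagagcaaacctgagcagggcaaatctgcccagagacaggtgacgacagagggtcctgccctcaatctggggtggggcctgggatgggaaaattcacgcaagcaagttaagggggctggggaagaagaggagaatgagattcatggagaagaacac
Hmgcs1 (chr13:119690101-119690380, plus strand), an enzyme of cholesterol synthesis that fell, holds an SRE match at 137, and Trib3 (chr2:152344031-152344310, minus strand), a target of the stress factors ATF4 and CHOP that rose, holds a C/EBP-ATF match 14 bases past its start.
Hmgcs1: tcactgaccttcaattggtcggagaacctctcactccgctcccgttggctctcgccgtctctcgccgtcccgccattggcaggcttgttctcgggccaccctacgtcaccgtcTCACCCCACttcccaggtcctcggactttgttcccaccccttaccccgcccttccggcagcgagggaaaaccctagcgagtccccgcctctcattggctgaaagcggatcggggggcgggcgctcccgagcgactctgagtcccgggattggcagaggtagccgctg
Trib3: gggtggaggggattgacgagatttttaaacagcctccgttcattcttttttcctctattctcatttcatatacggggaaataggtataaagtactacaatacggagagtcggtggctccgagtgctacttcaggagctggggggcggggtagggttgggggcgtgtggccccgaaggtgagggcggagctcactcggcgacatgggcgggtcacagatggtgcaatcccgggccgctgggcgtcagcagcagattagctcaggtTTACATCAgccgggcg

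Across the compared genes with 1 window, the ISRE letters stood in 19.0% of the promoters of genes that rose and in 1.45% of those of genes that fell. They stood in 3.36% of all 6702 and in 3.58% of all 22862 single windows of the reference. Among genes that rose by at least 4 on the log2 scale, the share was 50.0% of 54, against 17.0% of 176 genes that rose by 1 to 4 and 1.33% of 75 that rose by less. The GAS letters followed the same order, with 20.4%, 11.4% and 5.33%, and stood in 6.80% of all 6702. The NF-kB letters did not, with 25.9%, 26.1% and 28.0% against 25.8% of all. In promoters of genes that fell, the NF-kB letters stood in 17.4% and the GAS letters in 6.52%. The SRE letters stood in 0.656% of promoters of genes that rose, 0.725% of those that fell and 0.910% of all. For the C/EBP-ATF letters these shares were 3.93%, 4.35% and 2.18%. By gene group, 12 of 14 interferon-inducible GTPases with 1 window held ISRE letters and 8 held GAS letters. Of the OAS, IFIT and restriction factors 13 of 26 held ISRE and 5 GAS letters, and of the PYHIN genes 4 of 6 held ISRE and none GAS letters. Of 12 genes that cut and load class I peptides, 2 held ISRE and 1 GAS letters. Of 21 sterol and fatty acid synthesis genes 1 held SRE letters, and of 27 ATF4 and CHOP response genes 8 held C/EBP-ATF letters. These shares are descriptions of letters near the start and were not tested. Matches of different strings shared bases in 17 of the 6702 windows.

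**Figure D1:**
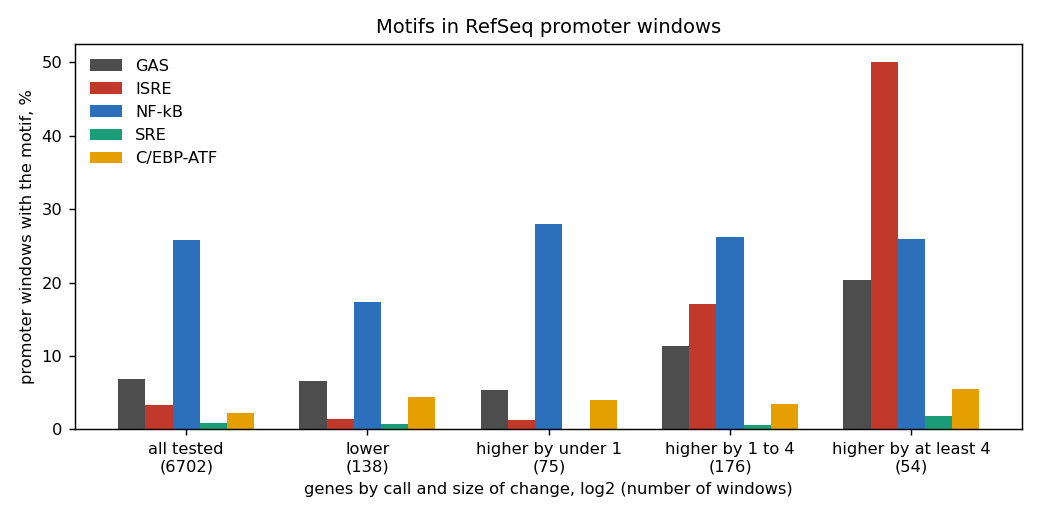
Percent of promoters (250 bases before to 50 after the start) that hold each letter string, as a bar per string, for genes grouped by their response to IFNγ in WT cells with the number of promoters below. The ISRE letters reach 50.0% in genes that rose by at least 4 on the log2 scale and 1.45% in genes that fell.

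IFNγ changed 730 of the 10981 genes (6.65%), of which 497 rose (4.53%) and 233 fell (2.12%). The rises were larger than the falls. The genes that rose did so by a median of 1.69 on the log2 scale, and 83 of them rose by at least 4, whereas the genes that fell did so by a median of 1.11 and 2 of them by at least 4. In medium, 25 of the genes that rose had no read and 20 had 1 to 3 reads over the 3 libraries. All 3 IFNγ libraries lay beyond all 3 medium libraries for 488 of the genes that rose and 230 of those that fell; over all compared genes this was so for 12.9% above and 11.3% below. Genes that rose took 2.64%, 2.85% and 3.12% of the reads in medium and 8.97%, 8.58% and 6.06% with IFNγ. Genes that fell took 2.57%, 2.67% and 2.70% in medium and 1.21%, 1.15% and 1.43% with IFNγ. The median change over all compared genes was -0.02.

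Library IFNγ C stood apart from IFNγ A and B. It was the treated library nearest to medium for 377 of the 497 genes that rose, against 66 for A and 54 for B. It was also nearest for 153 of the 233 that fell. Over all 10981 compared genes, IFNγ A was the lowest treated library in 35.1%, B in 27.3% and C in 37.6%. IFNγ C lay above both A and B in 4000 of them. Without it 1084 genes were called, 621 higher and 463 lower, and 463 of the 497 and 209 of the 233 were still among them. Leaving out IFNγ A or B instead gave 424 or 428 calls, 329 or 320 of them higher and 95 or 108 lower. Leaving out medium A, B or C gave 504, 448 or 561 calls, of which 113, 101 and 141 fell. Depth ran from 4206978 to 7250217 reads per WT library. IFNγ A, B and C held 4206978, 5228009 and 4554009 reads, and a part of depth in the values of C was not tested. Values that move by over 1.5 times, or calls that end or begin, when a single library is left out are given beside the gene. Where a gene is given as a fold of pooled reads, a fitted change that moved is given with that of Batf2 or beside the gene.

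All 14 markers of microglia and macrophages were compared, and their summed level was 2638 to 3318 CPM in medium and 2774 to 2907 CPM with IFNγ. Of these 1 rose, Aif1, and 1 fell, Trem2. Of 56 markers of 8 other cell types, 34 had no read and 5 could be compared, of which Lck and Cnp rose. The 7 T cell markers together stood at 1.93 to 2.51 CPM in medium and 6.37 to 10.3 CPM with IFNγ. Of these 7, 4 had reads, while Cd3e, Cd3g and Cd8a had none. The 7 oligodendrocyte markers stood at 9.10 to 14.6 and 16.9 to 21.6 CPM, with Mog, Mag, Olig1 and Olig2 at no read. Their part in the results was not tested.

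**Figure D2:**
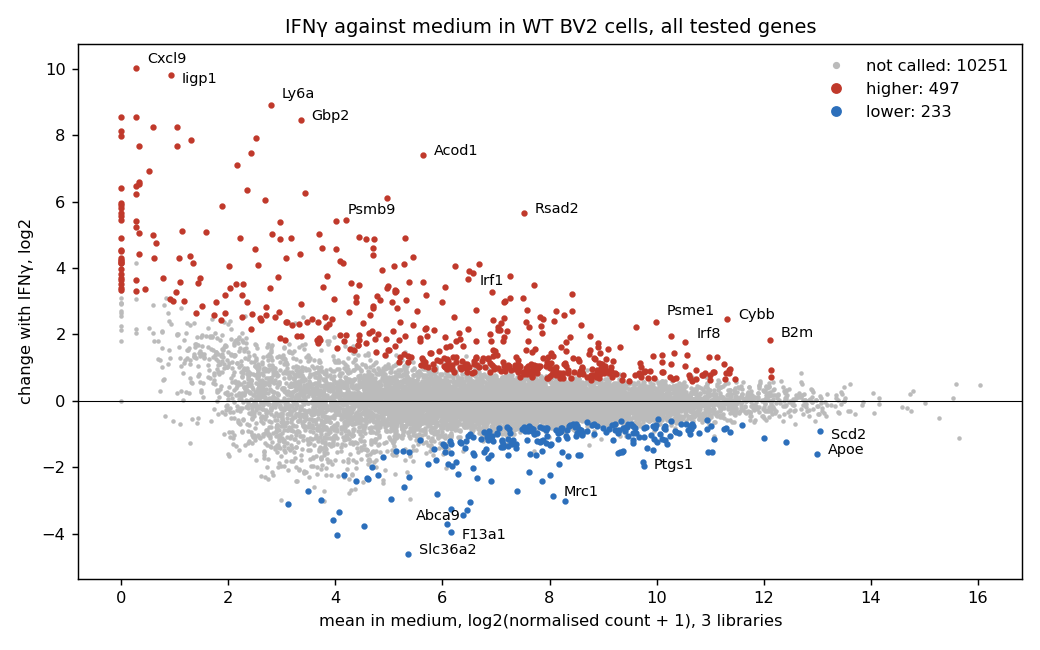
Log2 change with IFNγ in WT cells against the mean log2 level in medium (3 libraries) for the 10981 compared genes, a point per gene, with called genes in colour. The 497 genes that rose (red) reach a change of 10.01, while the 233 that fell (blue) reach -4.63.

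In the signalling chain itself, Ifngr1 and Ifngr2 were not called, and Jak2, Stat2 and Stat3 rose. Ifngr1, the ligand-binding chain, stood at 6.39, 7.33 and 7.87 in medium and 7.17, 6.45 and 7.79 with IFNγ, a difference of -0.06 (SE 0.34, adjusted p = 0.946). Ifngr2 differed by 0.24 (SE 0.32, adjusted p = 0.74). Jak1 differed by 0.55 (SE 0.18, adjusted p = 0.0684), and Jak2 rose by 1.29 (SE 0.29, adjusted p = 0.00816), with adjusted p = 0.0808 without WT IFNγ B. Stat2, a factor of type I interferon signalling, stood at 4.52, 5.17 and 4.94 in medium and 9.47, 8.84 and 8.11 with IFNγ and rose by 3.93 (SE 0.37, adjusted p = 4.42e-07). Stat3, the STAT of the IL-6 and IL-10 receptors, rose by 1.63 (SE 0.22, adjusted p = 5.05e-05).

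Of 12 IRF and BATF transcription factors 5 rose and none fell, with a median of 0.71. Irf1 (ENSMUSG00000018899, chromosome 11, 53770014 to 53778374) stood at 6.39, 6.31 and 6.81 in medium and 11.22, 11.07 and 8.93 with IFNγ; the change was 3.91 (SE 0.45, adjusted p = 5.78e-06), and 4.64 without WT IFNγ C. Irf7, which drives type I interferon genes, stood at 4.20, 3.94 and 5.58 in medium and 9.50, 9.54 and 9.31 with IFNγ and rose by 4.87 (SE 0.46, adjusted p = 4.81e-07). In Irf7 the 3 treated libraries lay close together, while Irf1 in IFNγ C lay more than 2 below A and B. Irf8, a factor that macrophages need to form, was already high in medium and rose by 1.78 (SE 0.38, adjusted p = 0.00571). Batf2 was at least 125-fold higher with IFNγ against no read in medium. Folds against no read set a floor of 3 reads over the group, so they are lower bounds, and intervals cover counting error only. These folds pool reads over libraries of similar size, so leaving out a low IFNγ C could raise none of them by over 1.5 times. The fitted change of Batf2 was 6.42, and 7.12 without WT IFNγ C. Without that library, other genes given below as folds also had fitted changes that moved by over 1.5 times. They went from 10.01 to 10.86 for Cxcl9, 8.13 to 9.10 for Tgtp2, 8.24 to 8.95 for Gm4951 and 8.55 to 9.25 for Slamf8. For H2-Aa, H2-Ab1 and H2-Eb1 they went from 5.97, 4.13 and 5.89 to 6.74, 5.10 and 6.52. For Ccl12, Ifi205 and Il15ra they went from 6.54, 6.92 and 4.41 to 7.28, 7.50 and 4.999. Irf2 was not called at 0.69 (adjusted p = 0.0519), but passed with adjusted p = 0.017 to 0.0448 without WT medium A or WT IFNγ C, and 0.0493 to 0.0497 with a pseudocount of 4 or a filter of 5. Irf5 was not called at 0.73 (adjusted p = 0.11), but passed with adjusted p = 0.0154 without WT IFNγ C.

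Of 17 feedback inhibitors and phosphatases 3 rose, Socs1, Socs2 and Usp18, with a median change of 0.20; 1 rose without medium A or B or without IFNγ A or B. Socs1 stood at 2.82, 3.17 and 4.11 in medium and 7.61, 7.29 and 3.95 with IFNγ. IFNγ A and B were high, while C lay between the medium values. The change was 2.92 (SE 0.76, adjusted p = 0.0232), it was 4.09 without WT IFNγ C, and adjusted p = 0.0877 to 0.15 without WT medium A or B or WT IFNγ A or B, and 0.0634 to 0.11 with no filter or limma-voom. Socs2 rose by 0.88 (SE 0.25, adjusted p = 0.0405), with adjusted p = 0.0679 to 0.19 without WT medium A, B or C or WT IFNγ A or B, and 0.0526 to 0.0575 with no filter or upper quartile scaling. Socs3 differed by -0.14 (adjusted p = 0.845).

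The interferon-inducible GTPases held many of the large rises. These proteins, the guanylate-binding proteins (GBP), immunity-related GTPases (IRG), giant GTPases and Mx proteins, coat and break the vacuoles of intracellular microbes or block viruses. Of 26 compared 21 rose and none fell, with a median change of 4.98, or 5.16 with the 7 genes that had no read in a group at their bound. Close paralogs among them can share reads. Gbp2 (ENSMUSG00000028270, chromosome 3, 142620602 to 142638008) stood at 2.66, 3.29 and 4.11 in medium and 12.52, 12.70 and 10.18 with IFNγ, a change of 8.45 (SE 0.85, adjusted p = 9.56e-07), and 9.26 without WT IFNγ C. Gbp3 stood at 1.71, 2.88 and 2.94 in medium and 10.36, 10.90 and 9.97 with IFNγ and rose by 7.90 (SE 0.52, adjusted p = 5.31e-09). Iigp1, an IRG of the vacuole attack, stood at 0.81, 0.00 and 1.95 in medium and 11.47, 11.66 and 9.03 with IFNγ. Its change was 9.80 (SE 0.80, adjusted p = 7.78e-08), and 10.65 without WT IFNγ C. Each of these stood near the floor in medium, and in each IFNγ C was the lowest treated library, by over 2 for Gbp2 and Iigp1.

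Several GTPases had almost no medium reads. Tgtp2, an IRG, had 450, 504 and 60 reads with IFNγ A, B and C, at least 474-fold higher with IFNγ against no read in medium. Gm4951 had 613, 685 and 141 reads with IFNγ A, B and C, 1009-fold higher with IFNγ (95% interval 279 to 8342) over 2 reads in medium. Counts in C were again the lowest for both. Gbp5, known for promoting inflammasome assembly, was 675-fold higher with IFNγ (95% interval 121 to 26706) over 1 read in medium, and the virus inhibitor Mx1 518-fold higher with IFNγ (95% interval 92.3 to 20500) over 1 read in medium. Gbp9 had no read in medium or in IFNγ C and stood at 4.48 and 5.43 in A and B; it was not called (adjusted p = 0.0754) but had adjusted p = 0.000336 without WT IFNγ C. Gbp5, Gbp7, Gbp3 and Gbp2 form a run of called neighbours on chromosome 3 (142493978 to 142638008).

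**Figure D3:**
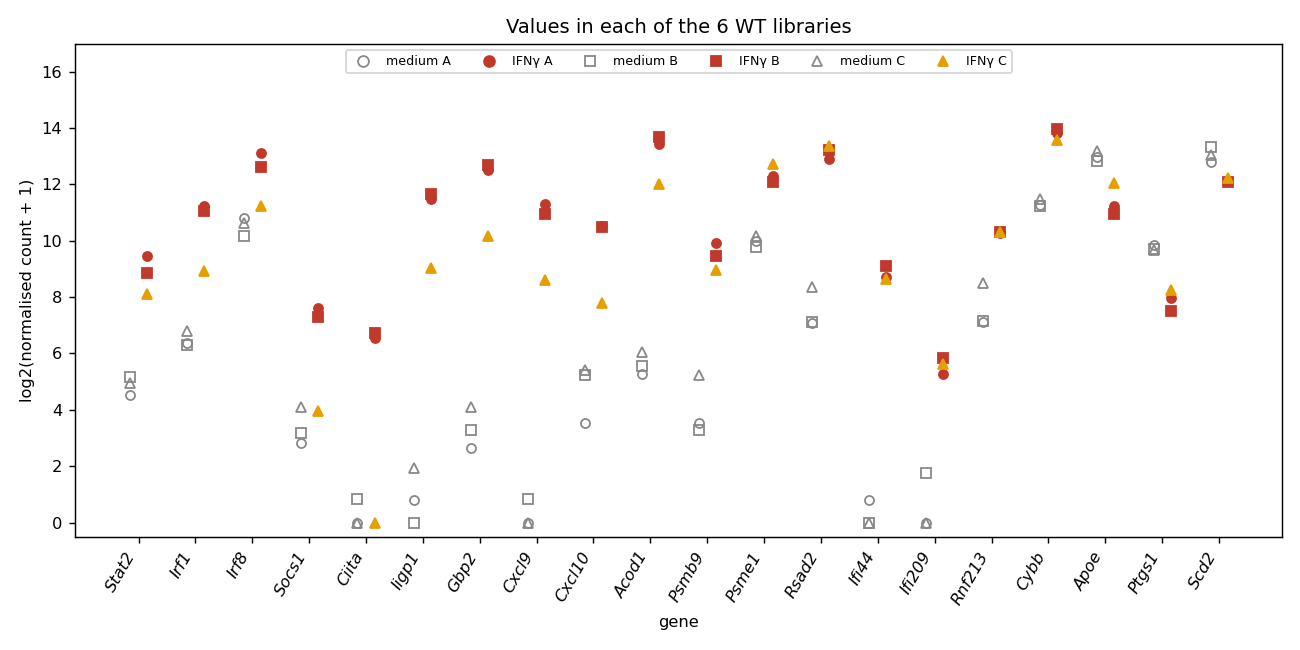
Log2 values of 20 genes (each a column) in each of the 6 WT libraries, medium as open and IFNγ as filled points, with IFNγ C in orange. For Gbp2, Iigp1 and Cxcl9 the C library with IFNγ lies below A and B, while for Rsad2 and Rnf213 the 3 treated libraries lie close together.

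Class I molecules present peptides to cytotoxic T cells. Of 12 class I heavy chain and related genes 7 rose, with a median of 1.93, and none fell. B2m, the light chain of every class I molecule, stood at 11.81, 12.24 and 12.32 in medium and 14.19, 14.19 and 13.45 with IFNγ and rose by 1.82 (SE 0.23, adjusted p = 1.75e-05). H2-T23, which presents to natural killer cell receptors, stood at 4.26, 4.77 and 5.07 in medium and 9.32, 9.90 and 8.03 with IFNγ and rose by 4.38 (SE 0.44, adjusted p = 9.32e-07). H2-T22 rose by 2.17 (SE 0.25, adjusted p = 5.87e-06) and H2-M3 by 2.20 (adjusted p = 0.000318). The uncalled H2-T24 and H2-T10 had changes of 2.35 (adjusted p = 0.0579) and 2.45 (adjusted p = 0.079); H2-T24 passed with adjusted p = 0.00879 to 0.0123 with a pseudocount of 4, the 6 WT libraries alone or limma-voom, and H2-T10 with adjusted p = 0.0401 to 0.0479 with a pseudocount of 4 or the 6 WT libraries alone. Class I genes are close paralogs, so reads may be split between them.

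Of 15 genes that cut and load class I peptides 10 rose, with a median of 2.38. Psmb9, an immunoproteasome subunit, stood at 3.54, 3.29 and 5.22 in medium and 9.91, 9.45 and 8.95 with IFNγ; the change was 5.42 (SE 0.38, adjusted p = 1.16e-08), and 6.02 without WT medium C. Tap1 (ENSMUSG00000037321, chromosome 17, 34187553 to 34197225), which carries peptides into the endoplasmic reticulum, stood at 5.47, 6.20 and 7.02 in medium and 10.56, 10.78 and 9.54 with IFNγ and rose by 4.06 (SE 0.40, adjusted p = 9.09e-07). Its partner Tap2 rose by 3.59 (SE 0.34, adjusted p = 5.12e-07) and the peptide editor Tapbpl by 3.40 (SE 0.36, adjusted p = 2.28e-06). Psme1, a proteasome activator, stood at 10.00, 9.79 and 10.18 in medium and 12.30, 12.08 and 12.72 with IFNγ and rose by 2.38 (SE 0.22, adjusted p = 4.64e-07); here IFNγ C was the highest of the 3. Of 34 genes of the constitutive proteasome 1 rose (2.94% called, against 6.65% of all compared genes). It was Psmb6, which rose by 0.77 (SE 0.17, adjusted p = 0.00724), with adjusted p = 0.0573 without WT IFNγ A. In this group 4 rose without IFNγ C.

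Of 12 class II genes and loading factors 5 rose, with a median of 3.11. These molecules present peptides to helper T cells. H2-Aa had 97, 87 and 17 reads with IFNγ A, B and C, at least 94-fold higher with IFNγ against no read in medium, and H2-Eb1 was at least 83.2-fold higher with IFNγ against no read in medium. H2-Ab1, at least 28.5-fold higher with IFNγ against no read in medium, had adjusted p = 0.0761 to 0.0766 without WT IFNγ A or B. H2-DMa, the peptide exchange factor, stood at 2.01, 0.85 and 0.97 in medium and 6.57, 7.07 and 3.24 with IFNγ. Its IFNγ C value lay more than 3 below A and B, and its change of 4.35 (SE 0.82, adjusted p = 0.0018) became 5.55 without WT IFNγ C; it was not called by voom (adjusted p = 0.108 with limma-voom). Ciita, the master regulator of class II genes, had 1 read in medium and stood at 6.54, 6.72 and 0.00 with IFNγ. It was not called (adjusted p = 0.0515) but had adjusted p = 1.04e-05 without WT IFNγ C, and 0.0287 to 0.0451 with a pseudocount of 4 or upper quartile scaling. Psmb9, Tap1, Psmb8, Tap2, H2-Ab1, H2-Aa and H2-Eb1 form a run of called neighbours on chromosome 17 (34181987 to 34316674).

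The OAS, IFIT and restriction factors, which sense or block viral RNA and particles, rose in 35 of 42 compared genes, with a median of 2.98. Rsad2 (ENSMUSG00000020641, chromosome 12, 26442746 to 26456452), whose product viperin makes a chain-ending nucleotide, stood at 7.10, 7.13 and 8.35 in medium and 12.91, 13.23 and 13.36 with IFNγ. It rose by 5.64 (SE 0.30, adjusted p = 4.06e-10), and the C library with IFNγ was the highest of the 3. Ifi44 had 333, 522 and 335 reads with IFNγ A, B and C, 1669-fold higher with IFNγ (95% interval 299 to 65991) over 1 read in medium. Ifit3, which helps bind foreign RNA ends, stood at 0.81, 2.88 and 1.95 in medium and 7.98, 7.63 and 7.65 with IFNγ and rose by 5.87 (adjusted p = 2.55e-06). Ifitm3, which blocks viral fusion, stood at 3.10, 3.03 and 4.19 in medium and 9.99, 9.92 and 9.17 with IFNγ and rose by 6.26 (adjusted p = 2.02e-07). Sp100 rose by 6.36 (SE 0.71, adjusted p = 4.13e-06), and 5.18 without WT medium A. Oas1b stood at 0.00, 0.85 and 1.54 in medium and 4.12, 3.53 and 3.41 with IFNγ and was not called (adjusted p = 0.0573), but passed with adjusted p = 0.00982 to 0.0476 with a pseudocount of 4, no filter, the 6 WT libraries alone or limma-voom. Ifit2, Ifit3, Ifit1bl1, Ifit3b and Ifit1 lie in a run on chromosome 19 (34550694 to 34650009).

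PYHIN genes, many of them nuclear DNA-binding proteins, rose in 8 of 9 with a median of 3.76. Ifi211 stood at 4.66, 3.94 and 6.29 in medium and 11.28, 11.48 and 10.49 with IFNγ; its change was 6.12 (SE 0.44, adjusted p = 1.34e-08), and 6.78 without WT medium C. Ifi205 had 206, 245 and 63 reads with IFNγ A, B and C, 361-fold higher with IFNγ (95% interval 99.3 to 2985) over 2 reads in medium. Ifi206 was at least 54.2-fold higher with IFNγ against no read in medium and Ifi209 57.5-fold higher with IFNγ (95% interval 19.2 to 283) over 3 reads in medium, all in medium B; the fitted change of Ifi209 was 4.99, and 5.57 without WT medium B. Aim2, the cytosolic DNA sensor of the family, differed by -0.31 (SE 0.25, adjusted p = 0.531) and was the member that did not rise. Except for Aim2, the called members form a run of 9 neighbours with the pseudogene Ifi203-ps on chromosome 1 (173468485 to 174031810). Their sequences are close, so reads may be shared.

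Of 9 genes of ISG15 and related modifiers 8 rose, with a median of 2.49. Isg15, a ubiquitin-like antiviral protein, stood at 2.47, 3.29 and 2.27 in medium and 8.99, 9.32 and 7.90 with IFNγ and rose by 6.06 (SE 0.60, adjusted p = 9.32e-07). Usp18, which removes it and dampens interferon signalling, rose by 3.33 (SE 0.34, adjusted p = 1.23e-06). The ubiquitin ligase Herc6 rose by 3.29 (adjusted p = 1.79e-05), and Ubd was at least 26.7-fold higher with IFNγ against no read in medium. Herc3 differed by -0.08 (adjusted p = 0.95). Of 15 ADP-ribosyltransferase genes 10 rose, with a median of 1.03. Parp14 stood at 5.93, 6.20 and 7.57 in medium and 10.83, 10.79 and 9.65 with IFNγ and rose by 3.86 (SE 0.45, adjusted p = 6.42e-06), and Dtx3l, the ligase partner of PARP9, rose by 2.24 (SE 0.23, adjusted p = 1.25e-06). Parp1, the DNA repair member, differed by -0.54 (adjusted p = 0.174), with adjusted p = 0.0365 without WT IFNγ C.

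Of 16 nucleic acid sensors and adaptors 5 rose, with a median of 0.55, led by Zbp1, a sensor of Z-form nucleic acid, with 214, 350 and 131 reads with IFNγ A, B and C, at least 325-fold higher with IFNγ against no read in medium. The RNA sensors Dhx58 and Ddx58 also rose: the change of Dhx58 was 3.03, or 3.62 without WT medium C, and that of Ddx58 was 2.68, or 3.49 without WT medium C. Samhd1, which destroys nucleotides that viruses need, rose by 1.94 (SE 0.24, adjusted p = 1.55e-05). Adar differed by 0.93 (adjusted p = 0.0894). Of 8 TRIM ligases 4 rose, and of 6 Schlafen genes 4 rose, 2 of them without medium A or B or IFNγ B or C. Slfn2, needed for immune cell quiescence, stood at 6.22, 7.66 and 7.25 in medium and 8.77, 9.73 and 9.33 with IFNγ and rose by 2.23 (SE 0.31, adjusted p = 6.5e-05). Apol9a was 335-fold higher with IFNγ (95% interval 59.6 to 13297) over 1 read in medium and Apol9b at least 66.9-fold higher with IFNγ against no read in medium. Of 4 Ms4a genes 3 rose, and 1 was called without IFNγ A or B. Ms4a4c was at least 17.8-fold higher with IFNγ against no read in medium, with adjusted p = 0.05 to 0.0633 without WT IFNγ A or B, and Ms4a6c rose by 3.14 (adjusted p = 9.44e-05). Rnf213, a very large ubiquitin ligase, rose by 2.72 (SE 0.30, adjusted p = 3.83e-06).

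The distance of IFNγ C from A and B differed from group to group. The GTPases had median changes of 6.15, 6.01 and 2.65 in A, B and C. Over all 10981 compared genes C was below both A and B in 4130, and among the GTPases in 24 of 26. They took 0.315%, 0.349% and 0.0878% of the reads with IFNγ and 0.00499%, 0.00414% and 0.00676% in medium. The class II genes had medians of 3.32, 3.69 and 1.19, and the Serpina3 and Ly6 genes 2.03, 3.19 and 1.12. The IRF and BATF factors had 0.97, 0.82 and 0.38. In the OAS, IFIT and restriction group the medians were 3.38, 2.96 and 2.80, with 0.473%, 0.505% and 0.464% of the reads. PYHIN genes had 3.74, 3.98 and 3.56, ADP-ribosyltransferases 1.05, 1.27 and 1.27, Schlafen genes 1.34, 2.15 and 2.06, and sterol synthesis genes -0.50, -0.68 and -0.62. Medians of C minus the mean of A and B, taken gene by gene, were -2.41 for GTPases and -0.42 for ADP-ribosyltransferases. They were -0.30 for PYHIN genes, -0.18 for the OAS, IFIT and restriction group and 0.43 for Schlafen genes. C was below both in 10 of 15 ADP-ribosyltransferases, 7 of 9 PYHIN and 24 of 42 OAS, IFIT and restriction genes. Thus the C library lay far below A and B in some groups and nearer to them in others. Among genes that rose by at least 2, the median of C minus the mean of A and B was -1.34 for the 12 with both GAS and ISRE letters, -0.61 for the 32 with ISRE, -0.76 for the 9 with GAS and -0.67 for the 77 with neither. In KO cells C minus the mean of A and B was -0.42 for the GTPases and -1.02 for class II genes. No cause was tested.

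**Figure D4:**
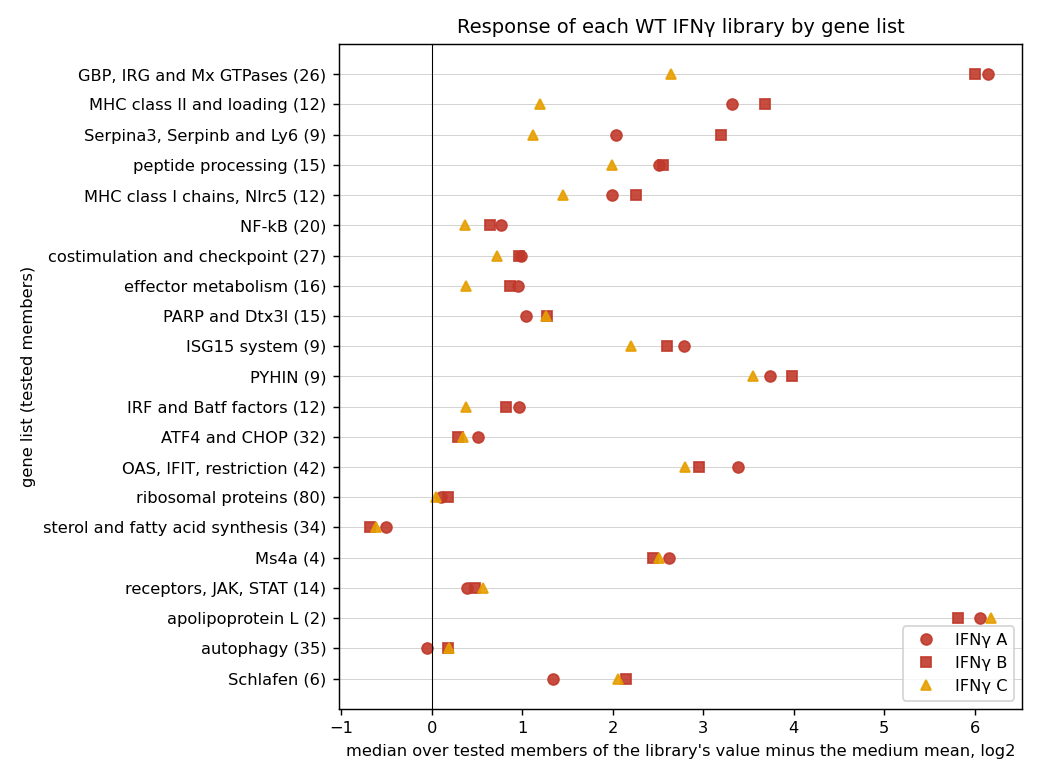
Median log2 change from the medium mean over the genes of each group (a row, with its number of compared genes), for IFNγ A, B and C in WT cells. C lies far below A and B for the GTPases (2.65 against 6.15 and 6.01). It lies nearer to them for the OAS, IFIT and restriction factors (2.80 against 3.38 and 2.96).

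Of 15 chemokine genes compared 6 rose and 3 fell. Cxcl9 (ENSMUSG00000029417, chromosome 5, 92321347 to 92328079), a ligand of CXCR3, had 2032, 1890 and 323 reads with IFNγ A, B and C, 5955-fold higher with IFNγ (95% interval 1068 to 235264) over 1 read in medium. Cxcl10, another CXCR3 ligand, stood at 3.54, 5.24 and 5.40 in medium and 10.52, 10.48 and 7.80 with IFNγ. Both were lowest in C among the treated libraries; the change of Cxcl10 was 4.87 (SE 0.66, adjusted p = 4.99e-05), and 5.78 without WT IFNγ C. Ccl5, an attractant of T cells, stood at 3.10, 3.29 and 3.11 in medium and 8.10, 8.26 and 7.84 with IFNγ and rose by 4.90 (SE 0.38, adjusted p = 3.68e-08). The monocyte attractant Ccl2 rose by 2.48 (SE 0.33, adjusted p = 3.27e-05), and Ccl12 was 523-fold higher with IFNγ (95% interval 93.3 to 20722) over 1 read in medium. Of 10 CC chemokines 4 rose and 2 fell; of 5 CXC chemokines 2 rose and 1 fell. The falls were Ccl9 by 1.54 (adjusted p = 0.0576 to 0.159 without WT medium A, B or C or WT IFNγ A or B, and 0.0611 with no filter), Ccl24 by 1.70 (adjusted p = 0.0698 to 0.151 without WT medium A, B or C or WT IFNγ A or B, and 0.053 to 0.0981 with no filter, the 6 WT libraries alone or limma-voom) and Cxcl14 by 0.79 (adjusted p = 0.0587 to 0.12 without WT medium A, B or C or WT IFNγ A, B or C, and 0.0655 with the 6 WT libraries alone). Of these 3 falls, Ccl9 and Ccl24 were still called without IFNγ C, and none was called when any of the other 5 WT libraries was left out.

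Of 18 cytokines 2 rose (11.1% called), with a median of 0.23. Il1rn, the blocker of the IL-1 receptor, stood at 4.47, 5.35 and 5.49 in medium and 8.66, 8.96 and 7.55 with IFNγ and rose by 3.28 (SE 0.37, adjusted p = 4.42e-06). Csf1, the growth factor of microglia, stood at 9.32 ± 0.23 in medium and 10.94 ± 0.06 with IFNγ (SD, n = 3) and rose by 1.62 (SE 0.18, adjusted p = 4.64e-06). Tnf stood at 6.18, 6.56 and 6.64 in medium and 7.91, 7.75 and 6.59 with IFNγ and was not called at 0.96 (adjusted p = 0.121), with adjusted p = 0.0126 without WT IFNγ C. Of 27 cytokine receptor genes 6 rose, with a median of 0.34. Il12rb1 stood at 1.71, 3.03 and 2.94 in medium and 6.85, 7.41 and 5.72 with IFNγ and rose by 4.10 (SE 0.63, adjusted p = 0.000196). Il15ra was 112-fold higher with IFNγ (95% interval 19.6 to 4487) over 1 read in medium, and Il7r rose by 2.04 (SE 0.40, adjusted p = 0.00241). Tnfrsf9, a costimulatory receptor, had a change of 2.68 (adjusted p = 0.00205), and 3.34 without WT medium C.

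Surface proteins that meet T cells rose in 9 of 27 compared genes, with a median of 0.69. Cd274, which encodes PD-L1, stood at 3.80, 4.39 and 3.11 in medium and 7.69, 8.32 and 5.58 with IFNγ; the change was 3.43 (SE 0.54, adjusted p = 0.000252), and 4.24 without WT IFNγ C. Cd40, the receptor of helper T cell CD40L, stood at 3.44, 3.78 and 4.33 in medium and 8.25, 8.27 and 6.26 with IFNγ; the change was 3.74 (SE 0.63, adjusted p = 0.000613), and 4.41 without WT IFNγ C. Both were lowest in C among the treated libraries. Slamf8 had 507, 552 and 118 reads with IFNγ A, B and C, at least 550-fold higher with IFNγ against no read in medium. Slamf7 stood at 0.00, 0.85 and 2.27 in medium and 9.63, 9.61 and 6.94 with IFNγ, a change of 7.69 (SE 0.70, adjusted p = 2.91e-07), and 8.58 without WT IFNγ C. Lgals3, a galectin, rose by 1.11 (SE 0.19, adjusted p = 0.000826). Among chemokine and related receptors, Ccrl2 was 27.6-fold higher with IFNγ (95% interval 8.99 to 138) over 3 reads in medium, and Gpr183, the receptor of an oxysterol, fell by 0.94 (SE 0.19, adjusted p = 0.00342). P2ry14 was at least 17.3-fold higher with IFNγ against no read in medium, with adjusted p = 0.0985 to 0.22 without WT medium A, B or C or WT IFNγ A or B, and 0.0687 with a pseudocount of 0.5.

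Inflammasome and cell death genes rose in part. Casp4, the sensor of cytosolic lipopolysaccharide, stood at 2.66, 4.39 and 2.94 in medium and 7.75, 8.48 and 7.03 with IFNγ and rose by 4.42 (SE 0.43, adjusted p = 7.85e-07). Casp1 rose by 1.13 (SE 0.21, adjusted p = 0.00151) and Gsdmd, the pore protein that both enzymes cut, by 1.28 (SE 0.24, adjusted p = 0.00189). Il18, a cytokine that caspase-1 cuts, rose by 1.52 (SE 0.37, adjusted p = 0.0144), with adjusted p = 0.0535 to 0.0963 without WT medium A or B or WT IFNγ B or C. Of 15 genes of that group 4 rose and 1 fell, Nlrp10, with a change of -2.32 (-2.97 without WT IFNγ C; adjusted p = 0.0892 to 0.196 without WT medium A, B or C or WT IFNγ A or B, and 0.0527 to 0.0996 with a pseudocount of 0.5, no filter, the 6 WT libraries alone or limma-voom). Of 29 death receptor and necroptosis genes 9 rose, with a median of 0.56. Fas stood at 2.01, 0.85 and 1.54 in medium and 5.32, 5.95 and 4.25 with IFNγ and rose by 3.71 (SE 0.63, adjusted p = 0.00065). Mlkl, the pore protein of necroptosis, rose by 1.49 (SE 0.29, adjusted p = 0.00255) and Daxx by 1.75 (SE 0.25, adjusted p = 0.000102). Bcl2a1b had a change of 1.82 (adjusted p = 0.0487), 2.56 without WT IFNγ C and adjusted p = 0.066 to 0.246 without WT medium A, B or C or WT IFNγ A or B, and 0.0501 to 0.121 with a pseudocount of 0.5, no filter, a filter of 5, the 6 WT libraries alone, limma-voom, upper quartile scaling or robust fitting.

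Of 20 Toll-like receptor and adaptor genes 3 rose. Tlr3, the receptor of double-stranded RNA, stood at 2.82, 2.32 and 0.97 in medium and 5.45, 5.80 and 5.01 with IFNγ and rose by 3.38 (SE 0.74, adjusted p = 0.00699). Irak2, a kinase of the Toll-like receptor pathway, rose by 1.90 (SE 0.40, adjusted p = 0.00532). Ticam2, an adaptor of TLR4, rose by 1.95 (SE 0.58, adjusted p = 0.0488), with adjusted p = 0.0527 to 0.167 without WT medium A, B or C or WT IFNγ A, B or C, and 0.0507 to 0.121 with a pseudocount of 0.5, no filter, a filter of 5, limma-voom or TMM scaling. Tlr2 was not called at 0.61 (adjusted p = 0.243), with adjusted p = 0.0118 without WT IFNγ C. Of 20 NF-kB genes 7 rose, with a median of 0.54, and 4 rose without IFNγ A or B. Tnip3 rose by 3.18 (SE 0.60, adjusted p = 0.00179) and Bcl3 by 2.53 (SE 0.51, adjusted p = 0.00317). Icam1, an adhesion molecule and NF-kB target, stood at 6.22, 6.15 and 6.62 in medium and 8.68, 8.78 and 7.15 with IFNγ; C lay below A and B, and the change was 1.87 (SE 0.35, adjusted p = 0.0018). Nfkbie rose by 2.36 (SE 0.64, adjusted p = 0.0305), with adjusted p = 0.0942 to 0.162 without WT medium B or C or WT IFNγ A or B, and 0.0827 with no filter. The inhibitor Tnfaip3 differed by 1.17 (adjusted p = 0.298).

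Effector metabolism was led by Acod1. Of 16 genes 6 rose and none fell, with a median of 0.74. Acod1 (ENSMUSG00000022126, chromosome 14, 103046977 to 103056573) stood at 5.28, 5.56 and 6.07 in medium and 13.45, 13.67 and 12.01 with IFNγ, and it rose by 7.41 (SE 0.37, adjusted p = 2.31e-10). It was among the 10 genes with the highest level among those that rose. Bst1, an enzyme that consumes NAD, stood at 1.71, 2.07 and 0.97 in medium and 7.25, 6.90 and 5.85 with IFNγ and rose by 5.08 (SE 0.46, adjusted p = 2.67e-07). Gch1, the first enzyme of the cofactor that nitric oxide synthase needs, rose by 1.36 (SE 0.30, adjusted p = 0.00673), and Wars, a tRNA synthetase long known to respond to IFNγ, by 0.97 (SE 0.24, adjusted p = 0.0175), with adjusted p = 0.0516 to 0.102 without WT medium A or B or WT IFNγ A or B. Upp1, a uridine phosphorylase, had a change of 3.51 (adjusted p = 0.00176), and 2.86 without WT medium B. Nos2, the inducible nitric oxide synthase, had no read in medium and stood at 5.53, 4.46 and 0.00 with IFNγ. It was not called (adjusted p = 0.079), with adjusted p = 0.000459 without WT IFNγ C.

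Genes of the phagocyte oxidase and antimicrobial proteins rose in 4 of 14. Cybb, the catalytic oxidase subunit, stood at 11.26, 11.24 and 11.48 in medium and 13.83, 13.98 and 13.58 with IFNγ and rose by 2.47 (SE 0.18, adjusted p = 1.9e-08). Its partner Cyba rose by 0.87 (SE 0.17, adjusted p = 0.00297). Mpeg1, a pore protein of phagosomes, stood at 7.16, 6.81 and 7.81 in medium and 10.43, 10.72 and 9.95 with IFNγ and rose by 3.11 (SE 0.29, adjusted p = 4.49e-07). Saa3, an acute phase protein, stood at 5.22, 4.44 and 6.24 in medium and 10.50, 10.13 and 9.94 with IFNγ and rose by 4.89 (SE 0.35, adjusted p = 1.38e-08). In these 4 genes no treated library overlapped a medium library, as in 488 of all 497 genes that rose. Of 32 ATF4 and CHOP response genes 5 rose, with a median of 0.33, and 2 rose without medium B or IFNγ A or B. Ddit3, which encodes CHOP, stood at 6.19, 5.11 and 6.22 in medium and 7.99, 8.07 and 7.86 with IFNγ and rose by 2.14 (SE 0.36, adjusted p = 0.000658). Trib3 stood at 4.70, 6.0 and 7.92 in medium and 8.71, 8.96 and 8.54 with IFNγ; its change was 2.53 (SE 0.50, adjusted p = 0.00293), and 3.38 without WT medium C. Of 27 glycolysis and pentose phosphate genes 3 rose (11.1% called, against 6.65% of all compared genes), with a median of 0.40. Hk3 led with 6.64, 6.43 and 6.80 in medium and 9.63, 9.51 and 8.90 with IFNγ, a change of 2.72 (SE 0.23, adjusted p = 1.51e-07). In this group 5 rose without IFNγ C.

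Of 20 complement and clotting genes 7 rose and 1 fell; 2 fell without IFNγ C. C1qb, a chain of the first component, stood at 7.50, 7.68 and 7.94 in medium and 11.60, 11.63 and 10.33 with IFNγ and rose by 3.48 (SE 0.30, adjusted p = 1.62e-07). C3, the central component, stood at 3.72, 5.56 and 6.03 in medium and 9.16, 9.45 and 8.88 with IFNγ; the change was 4.06 (SE 0.44, adjusted p = 2.55e-06), and 3.37 without WT medium A. C1ra, a protease of the first component, had a change of 4.07 (adjusted p = 0.00433), and 3.06 without WT medium A. F13a1, a clotting transglutaminase, stood at 5.65, 5.70 and 7.12 in medium and 2.59, 0.00 and 4.06 with IFNγ; its change was -3.94 (SE 0.76, adjusted p = 0.00238), and -2.83 without WT IFNγ B. Of 8 Fc receptor genes 3 rose. Fcgr1, the high-affinity IgG receptor, stood at 7.41, 7.69 and 7.70 in medium and 9.62, 9.77 and 8.83 with IFNγ and rose by 1.80 (SE 0.26, adjusted p = 0.000115), and Fcgr4 rose by 3.50 (SE 0.48, adjusted p = 5.49e-05). Fcgr3 differed by 0.50 (adjusted p = 0.164).

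Of 31 myeloid identity and phagocytosis genes 7 rose and 3 fell, with a median of -0.03; 1 fell without medium A or IFNγ A and none without medium B or IFNγ B. Aif1, which encodes the microglial marker IBA1, stood at 5.54, 5.30 and 6.07 in medium and 9.19, 9.57 and 8.85 with IFNγ and rose by 3.57 (SE 0.26, adjusted p = 1.38e-08). Cd36, a scavenger receptor, stood at 3.22, 1.76 and 2.53 in medium and 7.59, 7.39 and 6.26 with IFNγ and rose by 4.58 (SE 0.52, adjusted p = 4.25e-06). Clec12a, an inhibitory lectin, rose by 4.30 (SE 0.42, adjusted p = 7.44e-07). Axl, a receptor for dying cells, had a change of 5.12 (adjusted p = 7.34e-05), and 5.83 without WT medium C. Among the falls, Trem2, a lipid receptor of microglia, stood at 9.12, 9.28 and 8.95 in medium and 8.43, 8.02 and 8.35 with IFNγ and fell by 0.85 (SE 0.19, adjusted p = 0.00931), with adjusted p = 0.0634 to 0.074 without WT medium B or WT IFNγ B. Mrc1, the mannose receptor, stood at 7.84, 7.76 and 8.58 in medium and 3.76, 4.59 and 7.26 with IFNγ. Its IFNγ C value lay close to medium; the change was -2.85 (adjusted p = 0.0255), it was -3.88 without WT IFNγ C, and adjusted p = 0.0673 to 0.151 without WT medium A, B or C or WT IFNγ A or B, and 0.0634 to 0.0819 with no filter or robust fitting. Cd300lb had a change of -1.91 (-2.68 without WT IFNγ C; adjusted p = 0.0603 to 0.118 without WT medium A or B or WT IFNγ A or B). Tmem119, a marker of resting microglia, was low throughout at 2.97, 3.70 and 3.11 in medium and 1.17, 1.04 and 3.41 with IFNγ and was not called at -1.39 (adjusted p = 0.404).

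Serpina3 and Ly6 genes rose in 5 of 9 compared genes, and 1 of the 9 fell. Ly6a, a surface antigen of activated cells, stood at 1.71, 3.03 and 3.64 in medium and 12.08, 11.99 and 11.01 with IFNγ and rose by 8.90 (SE 0.75, adjusted p = 1.26e-07). Serpina3g, a cysteine protease inhibitor, stood at 0.81, 0.00 and 3.11 in medium and 10.38, 10.21 and 6.94 with IFNγ; the change was 7.87 (SE 0.79, adjusted p = 1.06e-06), and 8.98 without WT IFNγ C; it was not called by voom (adjusted p = 0.0577 with limma-voom). Serpina3f stood at 0.00, 0.00 and 3.11 in medium and 10.29, 10.24 and 7.32 with IFNγ, a change of 8.24 (adjusted p = 1.7e-07), and 9.28 without WT medium C; these paralogs may share reads. Serpinb1a, an inhibitor of neutrophil proteases, stood at 9.49, 9.78 and 10.00 in medium and 7.54, 7.40 and 8.44 with IFNγ and fell by 1.96 (SE 0.33, adjusted p = 0.000642). Of 35 cathepsin and lysosome genes 6 rose, led by Ctsc, which activates granule proteases, by 1.32 (SE 0.25, adjusted p = 0.00166); 3 rose without IFNγ A and 2 without IFNγ B. Npc2, which moves cholesterol out of lysosomes, rose by 0.96 (SE 0.19, adjusted p = 0.00255).

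Of 34 genes of cholesterol and fatty acid synthesis, 13 fell and none rose, with a median of -0.54. These enzymes are controlled by the SREBP factors. Elovl6, a fatty acid elongase, stood at 9.58, 9.30 and 8.96 in medium and 7.23, 7.85 and 8.05 with IFNγ and fell by 1.57 (SE 0.24, adjusted p = 0.000166). Hmgcs1 (chromosome 13), which makes HMG-CoA, stood at 10.59, 10.02 and 9.23 in medium and 9.02, 8.70 and 8.63 with IFNγ and fell by 1.16 (SE 0.26, adjusted p = 0.00866), with adjusted p = 0.0677 without WT medium A. Scd2, a desaturase, stood at 12.81, 13.33 and 13.04 in medium and 12.11, 12.07 and 12.23 with IFNγ and fell by 0.92 (SE 0.18, adjusted p = 0.00263). In each of these every treated library lay below every medium library, as in 230 of all 233 genes that fell. Lss, which closes the sterol rings, fell by 1.17 (SE 0.27, adjusted p = 0.0109), with adjusted p = 0.054 to 0.0977 without WT medium B or WT IFNγ A. Idi1, an isoprenoid isomerase, fell by 1.44 (SE 0.40, adjusted p = 0.0333), with adjusted p = 0.0795 to 0.13 without WT medium A, B or C or WT IFNγ A or B, and 0.0617 to 0.0838 with no filter or limma-voom. The group took 0.416%, 0.513% and 0.415% of the reads in medium and 0.272%, 0.249% and 0.263% with IFNγ. The number of falls was 6, 5, 6 and 6 without medium A, medium B, IFNγ A and IFNγ B, and 12 without IFNγ C.

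Sterol efflux and lipid carrier genes moved both ways, with 3 of 20 higher and 5 lower. Apoe, the main lipid carrier of microglia, stood at 12.96, 12.82 and 13.20 in medium and 11.22, 10.94 and 12.05 with IFNγ and fell by 1.59 (SE 0.23, adjusted p = 9.48e-05). Abca9, a transporter that responds to cholesterol, stood at 7.0, 6.02 and 6.55 in medium and 2.86, 3.06 and 4.50 with IFNγ and fell by 3.05 (SE 0.41, adjusted p = 4.61e-05), and Abca2 fell by 1.64 (SE 0.34, adjusted p = 0.0046). Apoc2 fell by 2.22 (SE 0.61, adjusted p = 0.0332), with adjusted p = 0.0671 to 0.139 without WT medium A, B or C or WT IFNγ A or B, and 0.0776 to 0.0882 with a pseudocount of 0.5 or no filter. Tspo, a mitochondrial outer membrane protein used to image activated microglia, stood at 8.69, 9.21 and 9.30 in medium and 10.51, 10.52 and 9.95 with IFNγ and rose by 1.26 (SE 0.23, adjusted p = 0.00129). Plin2, which coats lipid droplets, rose by 0.82 (SE 0.23, adjusted p = 0.0341), with adjusted p = 0.0883 to 0.157 without WT medium A or B or WT IFNγ B or C. The number of falls was 3 without medium A or B or IFNγ A or B.

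Of 17 eicosanoid genes 4 fell and 1 rose; 2 rose without IFNγ C. Ptgs1, the constitutive cyclooxygenase, stood at 9.85, 9.71 and 9.67 in medium and 7.96, 7.49 and 8.24 with IFNγ and fell by 1.85 (SE 0.20, adjusted p = 3.54e-06). Pla2g4a, which frees arachidonic acid, fell by 0.82 (SE 0.24, adjusted p = 0.0398), with adjusted p = 0.0802 to 0.207 without WT medium A, B or C or WT IFNγ A or B, and 0.0644 with no filter. Ltc4s, the leukotriene C4 synthase, stood at 6.18, 5.89 and 6.19 in medium and 0.00, 2.38 and 4.78 with IFNγ. The treated values were spread from 0.00 to 4.78, the change was -3.70 (adjusted p = 0.0096), and -4.89 without WT IFNγ C with adjusted p = 0.0507 to 0.0547 without WT medium A or WT IFNγ A. Tbxas1, the thromboxane synthase, stood at 3.22, 3.94 and 3.53 in medium and 5.61, 7.01 and 5.43 with IFNγ and rose by 2.45 (SE 0.51, adjusted p = 0.00429). Ptgs2, the inducible cyclooxygenase, stood at 5.42, 5.87 and 5.43 in medium and 7.69, 7.37 and 4.90 with IFNγ and was not called at 1.08 (adjusted p = 0.231), with adjusted p = 0.000553 without WT IFNγ C. The falls numbered 1 without medium A or IFNγ A and 2 without medium B, medium C or IFNγ B.

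**Figure D5:**
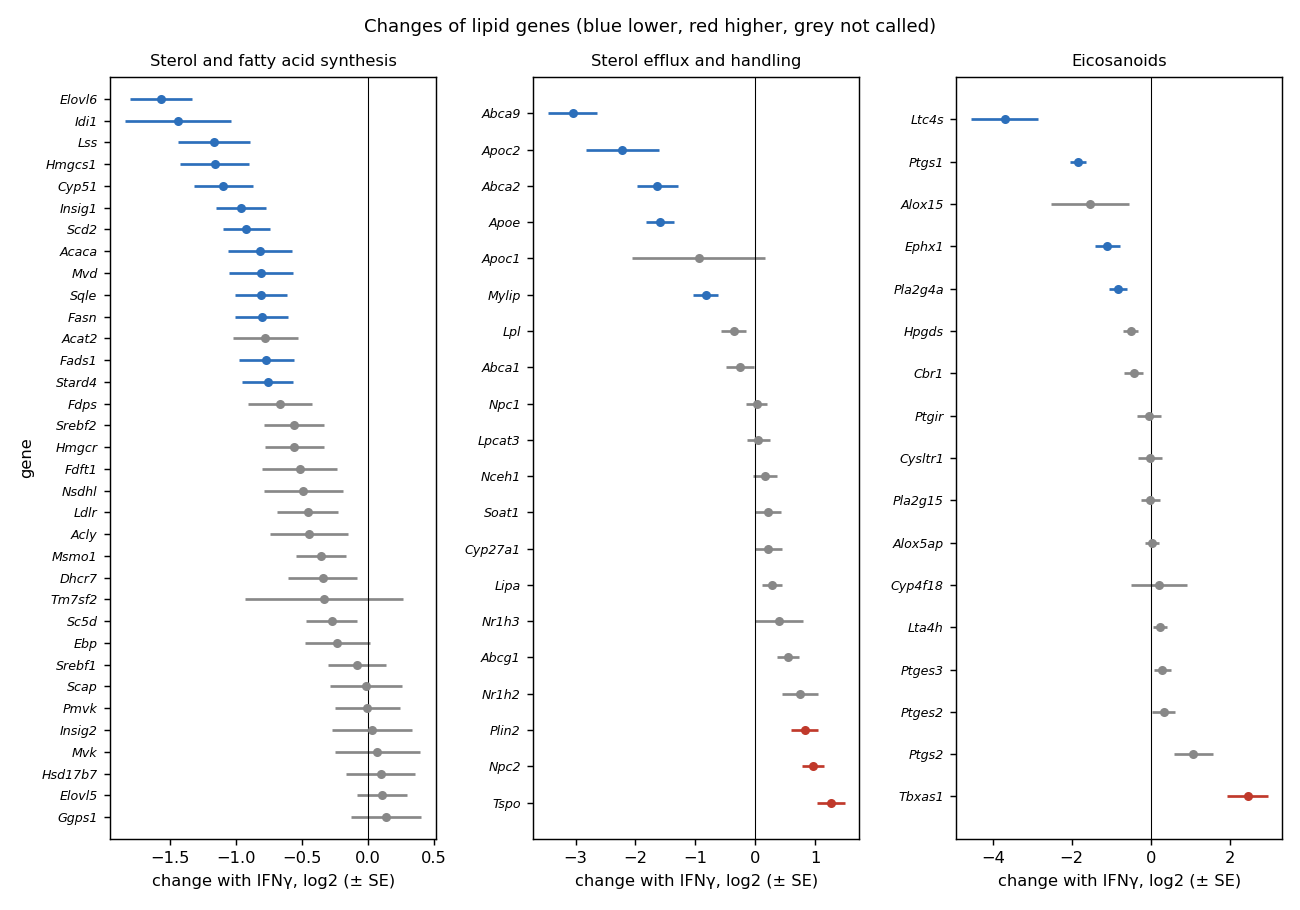
Log2 change with IFNγ in WT cells, as a point with limma's standard error, for each gene of sterol and fatty acid synthesis, sterol efflux and eicosanoid synthesis. Falls are blue, rises red and uncalled genes grey. Called synthesis genes all lie below 0, with Elovl6 lowest at -1.57, while efflux genes lie on both sides.

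Other genes with large falls belonged to several roles. Slc36a2, an amino acid transporter, stood at 5.56, 5.04 and 5.49 in medium and 1.17, 1.04 and 0.00 with IFNγ and was 52.4-fold lower with IFNγ (95% interval 14.2 to 437) over 2 reads with IFNγ. Nanos1, an RNA-binding translational repressor, stood at 6.21, 7.02 and 5.94 in medium and 4.31, 3.39 and 1.14 with IFNγ; the change was -3.44 (adjusted p = 0.00063), and -2.54 without WT IFNγ C. Asb10 stood at 8.51, 8.11 and 8.26 in medium and 4.12, 5.07 and 6.67 with IFNγ; the change was -3.01 (adjusted p = 5.5e-05), and -3.70 without WT IFNγ C. Igfbp4, a binder of insulin-like growth factors, stood at 9.64, 9.88 and 9.93 in medium and 8.52, 8.18 and 8.50 with IFNγ and fell by 1.42 (SE 0.20, adjusted p = 5.92e-05). Lsp1, an actin-binding protein of leukocytes, fell by 2.32 (SE 0.42, adjusted p = 0.00138). Of the genes that fell with the highest medium level, Sipa1l1 stood at 12.72, 12.33 and 12.21 in medium and 10.99, 11.34 and 11.16 with IFNγ and fell by 1.25 (SE 0.19, adjusted p = 0.000242), and Rasgrp3, an activator of Ras, fell by 1.54 (SE 0.19, adjusted p = 1.43e-05). Cd9, a tetraspanin, fell by 0.86 (SE 0.18, adjusted p = 0.00392). Of 61 replication and cell cycle genes 2 fell and 2 rose, with a median of -0.28. Thus 6.56% were called, near the 6.65% of all compared genes. In this group 4 fell without IFNγ C, and 1 rose without medium B or C or IFNγ A or B. Kif11, a spindle motor, stood at 9.91, 10.21 and 10.06 in medium and 8.87, 9.0 and 9.29 with IFNγ and fell by 1.01 (SE 0.18, adjusted p = 0.00141), and Mki67, the proliferation marker, fell by 1.31 (SE 0.28, adjusted p = 0.00519). The p53 target Cdkn1a, a cell cycle inhibitor, stood at 8.85, 8.74 and 9.12 in medium and 10.84, 10.54 and 10.21 with IFNγ and rose by 1.62 (SE 0.21, adjusted p = 2.79e-05), while Sesn1 fell by 1.40 (SE 0.29, adjusted p = 0.00384).

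Actin and membrane genes moved both ways, with 5 of 36 higher and 2 lower and a median of 0.21. Marcksl1, a membrane and actin binder, rose by 0.97 (SE 0.21, adjusted p = 0.0069), and its relative Marcks by 1.18 (SE 0.19, adjusted p = 0.000349). Tmsb10, which binds free actin, rose by 1.00 (SE 0.27, adjusted p = 0.0279), with adjusted p = 0.0565 to 0.157 without WT medium A, B or C or WT IFNγ B. Of 13 integrin genes 1 rose and 2 fell. Itgb7 rose by 2.27 (SE 0.25, adjusted p = 2.74e-06). Itga6, a laminin receptor chain, fell by 1.08 (SE 0.26, adjusted p = 0.0123), with adjusted p = 0.0672 to 0.0873 without WT medium A or WT IFNγ A. Lck, the kinase of T cell receptors, rose by 1.83 (SE 0.41, adjusted p = 0.00861), with adjusted p = 0.064 without WT IFNγ B. Of 15 iron and haem genes 2 rose and 1 fell. Cp, the copper enzyme that oxidises iron, stood at 2.26, 2.53 and 3.53 in medium and 6.26, 5.36 and 6.92 with IFNγ and rose by 3.40 (SE 0.41, adjusted p = 1.17e-05). Leaving out 1 WT library at a time, the actin group had 2 to 6 rises and 1 to 3 falls, the integrins 1 to 2 rises and 0 to 5 falls, and the iron genes 1 to 2 rises and 0 to 2 falls, the most falls in each without IFNγ C.

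Of 49 myeloid transcription factor genes 3 rose and 2 fell, with a median of 0.15. Thus 10.2% were called, against 6.65% of all compared genes. Klf3, a repressor of the Krüppel-like family, rose by 0.79 (SE 0.20, adjusted p = 0.0174), with adjusted p = 0.0555 to 0.072 without WT medium B or C or WT IFNγ A. Mef2c, a factor of microglia, fell by 0.85 (SE 0.19, adjusted p = 0.00931), with adjusted p = 0.0541 to 0.072 without WT medium A or WT IFNγ A or B. Of 34 early genes and MAP kinase feedback genes 3 rose and 2 fell. Dusp10, a phosphatase of p38 and JNK, rose by 3.57 (SE 0.72, adjusted p = 0.00351), with 4.20 without WT IFNγ C. Zfp36, whose product destabilises cytokine mRNAs, stood at 8.79, 9.41 and 9.35 in medium and 8.25, 8.09 and 7.71 with IFNγ and fell by 1.17 (SE 0.23, adjusted p = 0.00299). Of 20 matrix, growth factor and guidance genes 3 rose and 1 fell. Adam17, which sheds TNF from the cell surface, rose by 0.88 (SE 0.21, adjusted p = 0.0123), with adjusted p = 0.0617 to 0.0901 without WT medium B or WT IFNγ A or B. Leaving out 1 WT library at a time, the transcription factors had 0 to 7 rises and 0 to 4 falls, the early genes 1 to 4 rises and 1 to 3 falls, and the matrix and guidance genes 0 to 3 rises and 1 to 2 falls.

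Large housekeeping groups held no call. None of 71 respiratory chain genes, 80 ribosomal protein genes, 35 autophagy genes and 14 reference genes passed the test, with medians of 0.03, 0.11, 0.11 and 0.03. Without IFNγ C, 2 autophagy genes and 1 ribosomal gene fell and 1 reference gene rose. The reference gene was Gapdh, which stood at 10.94, 11.19 and 11.31 in medium and 11.98, 11.91 and 11.43 with IFNγ and differed by 0.63 (adjusted p = 0.0561), with adjusted p = 0.0125 without WT IFNγ C. Actb, the level by which the libraries were pooled, stood at 16.22, 15.91 and 15.97 in medium and 16.66, 16.55 and 16.29 with IFNγ, a difference of 0.47 (SE 0.23, adjusted p = 0.264). Atg5, which is needed to form autophagosomes, differed by 0.43 (SE 0.17, adjusted p = 0.149). Of 24 tricarboxylic acid cycle genes 1 fell (4.17% called, against 6.65% of all compared genes). It was Idh1, which fell by 0.88 (SE 0.20, adjusted p = 0.00904), with adjusted p = 0.0597 without WT medium B.

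The KO cells gave a second IFNγ comparison with its own medium libraries. In it 513 genes rose (4.67%) and 295 fell (2.69%). Of the genes that rose, 324 were called in both genotypes, 65.2% of the WT and 63.2% of the KO rises. Of those that fell 95 were called in both, 40.8% and 32.2%. No gene that rose in WT fell in KO, and 1 that fell in WT rose in KO, Hnrnph1, an RNA-binding splicing factor chosen after its values were seen, with changes of -0.85 and 0.98. The changes of some leading genes are given side by side. Acod1 changed by 7.41 in WT and 7.05 in KO, Rsad2 by 5.64 and 4.80, Apoe by -1.59 and -1.81, and Hmgcs1 by -1.16 and -0.77.

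The difference between the responses was tested directly. By limma 0 of 10981 genes (0%) passed, 792 had an unadjusted p under 0.05, and the smallest adjusted p was 0.106; limma-voom also called 0, with 766 at an unadjusted p under 0.05. A p that misses the threshold does not show that the responses are alike. The genes named here were chosen after their values were seen. Myh10, a non-muscle myosin, changed by 1.31 in WT and 6.02 in KO. C1qb changed by 3.48 and 5.77, and Mki67 by -1.31 and 0.79; all 3 had an adjusted p of 0.106 for the difference. Kif11 changed by -1.01 and 0.13, with an adjusted p of 0.294 for the difference. Mki67 passed without WT IFNγ C (adjusted p = 0.031) and without KO IFNγ B (0.0303). Myh10 and C1qb passed without KO IFNγ C (0.00108 and 0.0238), C1qa without KO medium B (0.0351), and Hnrnph1 and AI506816 without KO IFNγ B (0.00428 and 0.0483).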

How the data were processed

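The authors deposited 1 table of log2 values. The build is GRCm38, and the tools named are STAR, HTSeq 0.6.1, FastQC 0.11.2 and DESeq2 1.10.1, per the submitters' processing notes; roles and annotation are not given in the sources used here. Each deposited log2 value is that of a size-factor normalised count with 1 added: for 100% of them the whole read number could be recovered, to within 0.01. Per the labels' protocols, cytosolic poly-A RNA was primed with barcoded oligo-dT. Copies made by polymerase chain reaction are not independent molecules, so floors (3 reads over a group) and 95% intervals cover counting error only.

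The test was limma 3.58.1 (R 4.3.3) on the deposited log2 values of all 12 libraries: 4 group means, 8 residual degrees of freedom, mean-variance trend, two-sided, Benjamini-Hochberg adjusted p under 0.05 over 10981 genes. It was tested on simulated data. Python 3.11.15, pandas 2.3.3 and scipy 1.17.1 made the summaries. Positions came from the GENCODE annotation of GRCm38, promoters from RefSeq on GRCm38.p6, which gave 22862 genes 1 window and 4163 several, which were left out of shares. Alternatives were the pseudocount, the filter, limma-voom, other scalings, robust fitting, the 6 WT libraries alone, a replicate block, each library left out, and a shorter promoter.

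The members, gene groups and tests were chosen with earlier results of these data known. Named genes were the 12 called genes with the largest change in each direction (mean at least 5, groups apart), the 10 of highest level in each, up to 4 called members per group and direction with 2 uncalled ones, and the signalling and reference genes whatever their result; not all are printed. Genes named outside this rule, with those of runs and markers, were chosen after their values were seen.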

Additional observations from a re-analysis of the deposited data

How the results depend on the processing

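No called gene changed direction under any alternative listed here that tested it, and 43 were not tested with a filter of 5. For 488 of the genes that rose and 230 of those that fell the groups did not overlap. Leaving out a library could therefore not reverse them. In the replicate block fit 815 genes were called, 539 higher and 276 lower, and 1 for the difference between genotypes. Of the genes given above as uncalled, Irf2 (adjusted p = 0.0468), Ciita (0.0266), H2-T24 (0.0295), Adar (0.0455) and Gapdh (0.0454) passed in that limma fit. Between WT medium and WT IFNγ, the same-letter correlations of deviations were -0.0635, 0.0166 and 0.00911. No WT medium library was closest to the IFNγ library of its own letter. Correlations of same-letter libraries across genotypes were not computed. The median of C minus the mean of A and B with IFNγ was -0.48 in WT and -0.23 in KO for genes that rose in WT. For genes that fell in WT it was 0.40 and 0.23. Leaving out each WT library in turn, calls ranged from 424 to 1084, higher genes from 320 to 621 and lower genes from 95 to 463; leaving out each of the 12 libraries, genes differing between genotypes ranged from 0 to 3. Without both IFNγ C libraries there were 1119 calls, 484 of them lower, and 3 genes differed between genotypes. With a pseudocount of 0.5 the difference between genotypes held 1 gene. The other settings (pseudocount 4, no filter, a filter of 5, the 6 WT libraries, voom, TMM, upper quartile, robust) gave 651 to 763 calls. The share of calls that were higher was 68.1%, and 57.3% without IFNγ C. In the 200 bases nearest the start, NF-kB letters stood in 20.7% of promoters of genes that rose, in place of 26.6%, and ISRE letters in 0% of those that fell, in place of 1.45%. The causes were not tested. Of 321 named genes, 30 lost their call without a filter, 12 with the 6 WT libraries, 8 by voom and 3 by TMM. Changes of under 1 log2 unit in genes of low level were hard to detect at this depth: the median SE was 0.635 below a mean of 5 and 0.199 between 9 and 11.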
